A study of Saccharomyces cerevisiae with 2 samples.

Results

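The 7 histidine biosynthesis genes of Saccharomyces cerevisiae, HIS1 to HIS7, were described by their ribosome footprints and their RNA. They were taken from the deposited table by systematic name, and all 7 were found among its 4685 genes. They also all passed the expression filter used here, a mean of both values of at least 5 RPKM (reads per length of gene and depth of library), which 4642 genes passed. The cells were of the haploid strain BY4741, a common laboratory background, harvested in mid-log growth in YPD, a rich medium with glucose. One sample was a library of ribosome-protected mRNA fragments (footprints), which count ribosomes on mRNA. The other was an RNA-seq library of cytoplasmically enriched RNA, depleted of ribosomal RNA and broken up by alkaline hydrolysis. Each assay has 1 library, and the depth of both is unknown, so no value below has a replicate error or a p-value and no difference has a replicate check. The series asks what sets ribosome density in yeast, and the comparison it allows is footprints against RNA for each gene.

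Histidine is built from PRPP (phosphoribosyl pyrophosphate) and ATP in a linear pathway whose enzymes in yeast are encoded by genes scattered over several chromosomes. The pathway is held at its first enzyme by histidine itself, and transcription of its genes is raised by the activator Gcn4 when amino acids run short, the response known as general amino acid control. A side product of the pathway, AICAR, is an intermediate of purine synthesis and is returned to that pathway. BY4741 cannot make histidine, because its HIS3 allele, his3Δ1, lacks an internal part of the gene. The strain takes up histidine from the medium.

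In these cells the genes of the pathway were expressed at unequal levels. Their mRNAs carried ribosomes at or above the density of the median gene, with HIS2 as the exception, and with HIS1 and HIS4 as further exceptions if total footprints over total RNA is taken as the baseline. HIS1 also dropped below the median gene when only genes with a mean of at least 20 RPKM set the median. HIS1 and HIS4, the genes of the first steps, had the highest levels in both assays. HIS6, HIS7, HIS3 and HIS5, the genes of the middle steps, had less mRNA but more footprints per mRNA. HIS2, the gene of the histidinol phosphatase, had the lowest footprint level and the lowest density of the 7. Over the 7 genes footprints spanned 8.70-fold and RNA spanned 11.4-fold, while the footprint to RNA ratio spanned 2.20-fold.

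The genes are given in the order of the pathway, with coordinates of assembly R64, which is the assembly that sacCer3 names. Each is annotated as 1 uninterrupted coding region, and none overlaps another annotated coding region. Density means log2 of footprint RPKM over RNA RPKM, minus the median of the 4642 genes, where the ratio of footprints to RNA was 0.821.

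HIS1 (YER055C, chromosome V, 264892 to 265785, minus strand, 894 nt) encodes ATP phosphoribosyltransferase, the enzyme of the first step and the one that histidine inhibits. It had 393.67 RPKM of footprints and 476.64 RPKM of RNA. These were the highest values of the 7 in both assays, and 91.6% of analysed genes had fewer footprints and 95.0% less RNA. Its density was 0.01, so it carried footprints in the same ratio to RNA as the median gene.

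HIS4 (YCL030C, chromosome III, 65934 to 68333, minus strand, 2400 nt) encodes a protein with several activities that acts early in the pathway and again at its end, as histidinol dehydrogenase. It had 289.56 RPKM of footprints and 287.91 RPKM of RNA. Its density was 0.29, or 1.23 times the median gene. HIS1 exceeded HIS4 by 1.36-fold in footprints and by 1.66-fold in RNA.

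HIS6 (YIL020C, chromosome IX, 314035 to 314820, minus strand, 786 nt) encodes the isomerase of the fourth step. It had 61.84 RPKM of footprints and 41.86 RPKM of RNA, which was the lowest RNA level of the 7 and the only one below the RNA level of the median gene, 49.6 RPKM. Its density of 0.85, or 1.80 times the median gene, was the highest of the 7.

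HIS7 (YBR248C, chromosome II, 714807 to 716465, minus strand, 1659 nt) encodes imidazole glycerol phosphate synthase, the glutamine-using enzyme that releases AICAR. It had 105.09 RPKM of footprints and 72.63 RPKM of RNA. Its density was 0.82, or 1.76 times the median gene.

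HIS3 (YOR202W, chromosome XV, 721946 to 722608, plus strand, 663 nt) encodes imidazoleglycerol-phosphate dehydratase. Although the gene is defective in this strain, it was listed with 138.51 RPKM of footprints and 97.20 RPKM of RNA, the third level of the 7 in both assays. Its density was 0.80, or 1.74 times the median gene.

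HIS5 (YIL116W, chromosome IX, 142928 to 144085, plus strand, 1158 nt) encodes histidinol-phosphate aminotransferase. It had 107.53 RPKM of footprints and 82.93 RPKM of RNA. Its density of 0.66, or 1.58 times the median gene, was the middle one of the 7.

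HIS2 (YFR025C, chromosome VI, 203743 to 204750, minus strand, 1008 nt) encodes histidinol phosphatase, which acts just before the final oxidation. It had 45.27 RPKM of footprints and 67.44 RPKM of RNA. Its density was -0.29, or 0.818 times the median gene, and it was the only one of the 7 below the median gene. HIS2 had more RNA than HIS6 but fewer footprints, and this was the one place where the order of the 7 genes differed between the assays. In both assays the order was otherwise HIS1, HIS4, HIS3, HIS5 and HIS7. HIS5 and HIS7 were next to each other in footprints at 107.53 and 105.09 RPKM, a gap that cannot be judged without replicates.

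**Figure D1:**
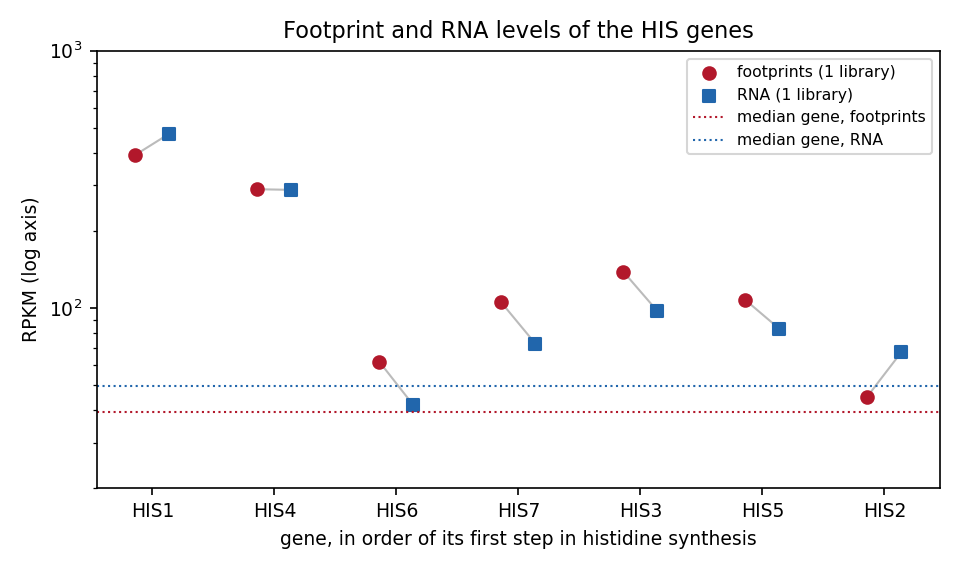
Footprint RPKM (circles) and RNA RPKM (squares) of each HIS gene on a log axis, in pathway order, with 1 library per assay and no error bars. Dotted lines mark the medians of all analysed genes, 39.4 RPKM of footprints and 49.6 RPKM of RNA. HIS1 and HIS4 lie highest in both assays, and the footprint value lies below the RNA value in HIS1 and HIS2.

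As a group the 7 genes had a median of 107.53 RPKM of footprints and 82.93 RPKM of RNA, against 39.4 and 49.6 RPKM over all analysed genes. The median of their densities was 0.66, which is 1.58 times the ratio of the median gene. Of the 7, 6 lay above the median gene, as 50.0% of all genes do by definition. Against the ratio of total footprints to total RNA 4 lay above, because HIS1 (-0.37) and HIS4 (-0.08) then joined HIS2 below 0. With that centring the median gene itself lies below 0, so fewer than 50.0% of all genes lie above 0. Against the median of genes that averaged at least 20 RPKM, 5 lay above, with HIS1 at -0.17. None lay more than 2-fold above the median gene, where 6.79% of analysed genes lay, and none more than 2-fold below it, where 13.1% lay. With centring on the totals, which lowers each density by 0.38, 76 genes of the table were more than 2-fold above and 1092 below, in place of 315 and 606. The SD of density was 0.45 over the 7 genes and 0.96 over all analysed genes, which include 30 genes with a density below -4. Without HIS3, the gene that is defective in the strain, the median density was 0.48 and 5 of 6 lay above the median gene.

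**Figure D2:**
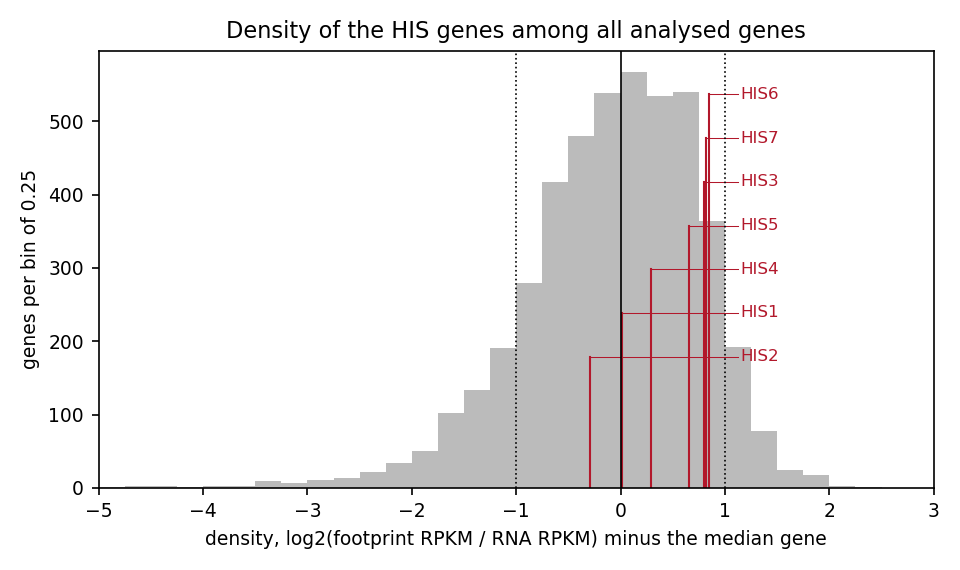
Density (log2 of footprint over RNA RPKM, minus the median gene) of the 7 HIS genes, marked by vertical lines, on the histogram of the 4642 analysed genes in bins of 0.25. The solid line is the median gene, dotted lines are 2-fold limits, and 24 genes below -5 are outside the axis. All 7 HIS genes lie inside the 2-fold limits, from HIS2 at -0.29 to HIS6 at 0.85. HIS1 and HIS4 move below 0 if densities are centred on total footprints over total RNA.

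Most ribosomes on these mRNAs sat on HIS4 and HIS1. By RPKM times coding length, a measure of all footprints on a gene and not of footprints per length, the 7 genes together took 0.158% of the listed footprints and 0.165% of the listed RNA. HIS4, the longest of the 7, held 45.4% of the footprints of the pathway and 46.1% of its RNA. HIS1 held 23.0% of the footprints and 28.4% of the RNA. The remaining 5 genes shared the rest, and per length their footprints spanned 3.06-fold and their RNA 2.32-fold.

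HIS3 was examined further because of its defect. The his3Δ1 allele is known as the loss of an internal HindIII fragment. In the reference sequence the HIS3 coding region has 2 HindIII sites, the first starting at coding base 305 and the second at coding base 495, so 190 bases or 28.7% of the coding region lie between them. That number is not a multiple of the codon length, so a gene without the fragment is out of frame beyond the junction. The reference sequence of this stretch (chrXV:722250-722445, plus strand), shown because it is the part of the pathway that the strain is described as lacking, is given with the HindIII sites in capitals.
HIS3 HindIII fragment: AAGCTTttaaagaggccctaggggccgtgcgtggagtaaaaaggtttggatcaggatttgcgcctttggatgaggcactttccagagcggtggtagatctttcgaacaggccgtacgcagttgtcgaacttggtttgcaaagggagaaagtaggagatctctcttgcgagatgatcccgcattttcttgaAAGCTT

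If no read came from this fragment and the authors divided by the whole coding length, the HIS3 values per length of the remaining 473 nt would be 194 RPKM of footprints and 136 RPKM of RNA. HIS3 would keep its place after HIS4 in both assays. This rescaling alone would leave the density unchanged, since both values are scaled alike. It takes reads of both assays to cover all 473 nt. Whether footprints do so beyond the junction, where the frame is lost, was not tested. The table gives 1 value per gene, so where the reads lie along HIS3, before or after the deleted part, is not analysed here. The coding regions next to HIS3 had other levels: MRM1, a mitochondrial ribosomal RNA methyltransferase gene on the opposite strand 237 bases upstream, had 21.53 RPKM of footprints and 44.97 RPKM of RNA. DED1, an RNA helicase gene 302 bases downstream on the same strand, had 749.52 RPKM of footprints and 598.41 RPKM of RNA.

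Coding length and RNA level go with density over the whole table, so each gene was also set against the 300 analysed genes around it in rank of each measure, itself included. For coding length, HIS7 stood out most. With a density of 0.82 it lay 1.01 above the median of genes of 1572 to 1749 nt, which was -0.19, and higher than 98.7% of them. HIS4 lay 0.79 above genes of 2223 to 2610 nt and higher than 93.0% of them. Its measured density of 0.29 was higher than that of 64.3% of all analysed genes. HIS5 lay 0.56, HIS6 0.47 and HIS3 0.28 above genes of like length. HIS1 (-0.25) and HIS2 (-0.50) lay below genes of like length. After this adjustment 5 of 7 genes were thus above 0, with a median of 0.47.

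**Figure D3:**
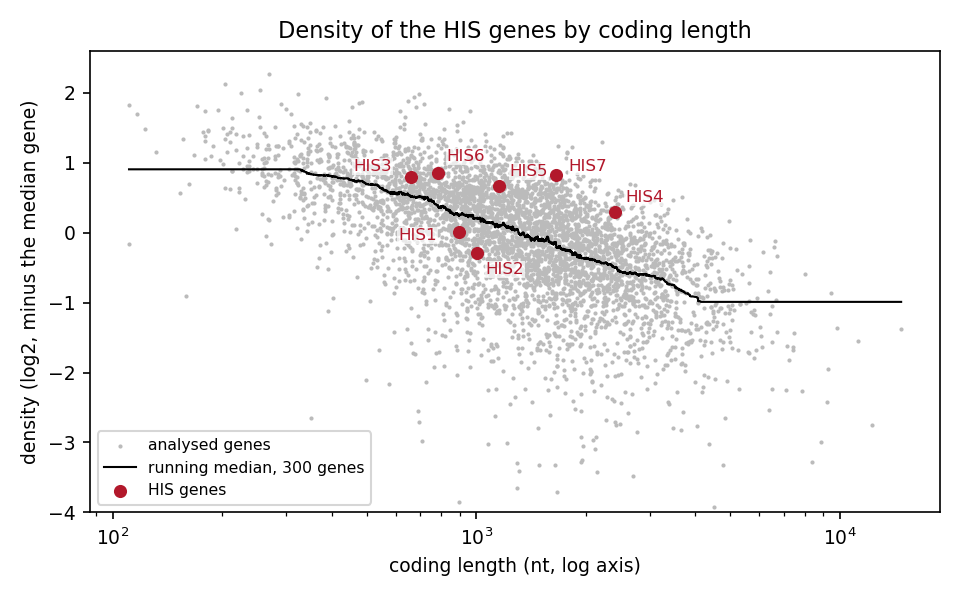
Density (log2, minus the median gene) against coding length in nt on a log axis, with analysed genes as grey points, the running median of 300 genes as a line and the HIS genes as large points. HIS7 and HIS4 lie 1.01 and 0.79 above the line, HIS1 and HIS2 lie below it, and 30 genes below -4 are outside the axis. With centring on total footprints over total RNA, points and line drop together by 0.38.

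Set against genes of like RNA level, the HIS genes lay on both sides. The genes nearest to HIS1 in RNA had 308 to 1654 RPKM of RNA, a wide range around its own 476.64 RPKM. HIS1 differed by -0.63 from their median and was higher than only 10% of them. HIS2 (-0.39) and HIS4 (-0.26) were also below such genes. HIS6 (0.96), HIS7 (0.69), HIS3 (0.51) and HIS5 (0.46) were above, and HIS6 was higher than 94.0% of genes of like RNA. HIS4 therefore lay above genes of its length and below genes of its RNA level. RNA RPKM is the denominator of density, so an error in an RNA value moves RNA level and density in opposite directions. How far this shaped the comparison by RNA level was not tested.

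The bases around the start codons are shown because they are where ribosomes begin on these mRNAs. Yeast genes often have A at the base 3 before the start codon. Of the 7 HIS genes 6 had A there, as did 61.4% of analysed genes, and HIS2, the gene with the lowest density, had G. Each line gives the 12 bases before the start codon and the codon after it from assembly R64, with the start codon in capitals.
HIS1 (chrV:265780-265797, minus strand): ttcaatagaaaaATGgat
HIS4 (chrIII:68328-68345, minus strand): tttttctgaataATGgtt
HIS6 (chrIX:314815-314832, minus strand): tactagaaaaaaATGacg
HIS7 (chrII:716460-716477, minus strand): aagaaaaagagaATGccg
HIS3 (chrXV:721934-721951, plus strand): acgaaggcaaagATGaca
HIS5 (chrIX:142916-142933, plus strand): taaaattacactATGgtt
HIS2 (chrVI:204745-204762, minus strand): atcctcgaggtcATGcac

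In these 12 bases HIS7 had 9 A, HIS6 had 8, HIS1 had 7, HIS3 and HIS5 had 6, HIS4 had 3 and HIS2 had 2. The median over analysed genes was 5. HIS6 and HIS7, with the highest densities, and HIS2, with the lowest, thus lay at the ends of this count too, but HIS1 had a high count and a density of 0.01. This is a description of 7 genes, and its part in the densities was not tested.

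Codon use ordered the 7 genes differently from density. Codon adaptation, the likeness of a gene's codons to those of 131 annotated cytosolic ribosomal protein genes on a scale with 1 as the highest value, had a median of 0.222 over the HIS genes and 0.198 over analysed genes. It was highest in HIS4 (0.335), followed by HIS5 (0.279), HIS1 (0.254), HIS6 (0.222), HIS7 (0.220), HIS2 (0.184) and HIS3 (0.135). HIS3 had lower codon adaptation than nearly all genes, with only 3.71% of analysed genes below it, while 87.0% of analysed genes had a lower density than HIS3. The codon value of HIS3 covers the whole reference coding region, with the part that the strain is described as lacking and the codons beyond it. A link of codon use to density was not tested.

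The upstream regions were searched for TGACTC, the core of the sequence that Gcn4 binds, because Gcn4 is the shared activator of the pathway. In the 300 bases before the start codon, on either strand, 6 of the 7 HIS genes held it and HIS2 did not, against 8.14% of analysed genes (378 of 4642). No other motif was searched. There were 11 matches in all, with 3 before HIS4, 2 each before HIS1, HIS7 and HIS3, and 1 each before HIS6 and HIS5. The farther match before HIS3, 286 bases from the start codon, lies inside the coding region of MRM1. The match nearest to each start codon is given 5′ to 3′ on the strand of the gene, with 10 bases on each side and the motif or its reverse complement in capitals.
HIS1 (chrV:265953-265978, minus strand): gcttccaagtGAGTCAcctctaccgt
HIS4 (chrIII:68517-68542, minus strand): ccatgcacagTGACTCacgttttttt
HIS6 (chrIX:314899-314924, minus strand): ctagtgtgcaGAGTCAtacggaataa
HIS7 (chrII:716594-716619, minus strand): catgagaaaaGAGTCAgacatcgaaa
HIS3 (chrXV:721814-721839, plus strand): acctagcggaTGACTCtttttttttc
HIS5 (chrIX:142716-142741, plus strand): ttggatctgtTGACTCacttcaattg

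A match is a description of letters and not of binding. By RNA level from the highest, HIS1 had 2 matches, HIS4 had 3, HIS3 had 2 and HIS5 had 1. HIS7 followed with 2, HIS2 with none and HIS6 with 1. A link of the number of matches to RNA level was not tested. HIS2, with none in this window, had an RNA level of 67.44 RPKM, between HIS7 and HIS6. The motif was also found before 8 of 8 measured arginine genes, 5 of 12 aromatic amino acid genes, 3 of 6 lysine genes, 3 of 4 genes around AICAR and 1 of 7 measured genes for histidine uptake, storage and charging. It was found before 0 of 5 PRPP synthetase genes and 0 of 6 regulator genes in this window.

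The genes that regulate the pathway had fewer footprints per length than HIS1 and HIS4, but GCN1 and GCN20 had more than every other HIS gene. Of the 6, GCN4 and GCN2 had densities under the lower 2-fold limit, where 13.1% of analysed genes lay. Adjusted for coding length, the densities were -4.94 for GCN4, -0.40 for GCN2, -0.27 for BAS1, 0.41 for GCN1, 0.56 for PHO2 and 0.57 for GCN20. The median of the 6 was 0.07 with this adjustment and -0.68 without it. GCN4, the activator itself, whose leader carries inhibitory upstream reading frames, had 27.71 RPKM of footprints and 830.37 RPKM of RNA, a density of -4.62. The kinase gene GCN2, which senses uncharged tRNA, had 13.03 RPKM of footprints and 41.60 RPKM of RNA (density -1.39). GCN1 (-0.58) and GCN20 (0.14), whose products work with Gcn2 on the ribosome, had 175.93 and 179.81 RPKM of footprints. BAS1 and PHO2, which together activate HIS4 and purine genes, had 13.36 and 25.10 RPKM of footprints and densities of -0.77 and 0.35.

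The enzymes that feed the pathway and take up its side product had footprint levels in the range of the HIS genes. The 5 genes of the PRPP synthetase family had 84.22 to 237.46 RPKM of footprints and densities from 0.00 for PRS1 to 0.75 for PRS2. PRS3 (0.52), PRS5 (0.30) and PRS4 (0.23) lay between. ADE16 and ADE17, which carry AICAR onward to IMP, had 172.62 and 297.72 RPKM of footprints and densities of 0.18 and 0.55. ADE13, which forms AICAR in purine synthesis and acts again on the way to AMP, had 369.34 RPKM and a density of 0.43, and ADE12, which commits IMP to AMP, had 377.70 RPKM and 0.63. PRS2 and PRS4, and ADE16 and ADE17, are similar pairs, so their values are uncertain where reads could be shared. None of these 9 genes was more than 2-fold from the median gene. Of all analysed genes 6.79% lay more than 2-fold above it and 13.1% more than 2-fold below.

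Genes for getting and using histidine were more spread. HTS1, the histidyl-tRNA synthetase gene, had 394.55 RPKM of footprints and 342.08 RPKM of RNA, with a density of 0.49. HIP1, the high-affinity histidine permease gene, had 104.46 RPKM of footprints and 87.74 RPKM of RNA and a density of 0.54. TAT1, a permease gene for several amino acids that also moves histidine, had 157.53 RPKM of footprints and 247.75 RPKM of RNA (density -0.37). The broad-range permease genes AGP1 (0.13) and GAP1 (-0.23) had 26.06 and 8.99 RPKM of footprints. Of the vacuolar transporters of basic amino acids, VBA1 had 27.98 RPKM of footprints (density -0.57), VBA2 had 2.80 RPKM (-2.43), and VBA3 was not among the listed genes. LEU2, URA3 and MET17, the genes that BY4741 lacks entirely, were not listed either, while HIS3 was.

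Other amino acid pathways under the same general control were set beside histidine synthesis, without a test, since there is 1 library per assay. The 7 histidine genes had a median density of 0.66, with 6 above the median gene. Without HIS3, which is defective in the strain, their median was 0.48, just under that of the aromatic genes. The 12 aromatic amino acid genes had a median density of 0.50, with 10 above the median gene, from TRP2 of anthranilate synthase (0.85) to ARO1, the large multi-domain enzyme of the shikimate pathway (-0.15). The 6 measured lysine genes of 8 had a median of -0.01, with 3 above, from the saccharopine dehydrogenase gene LYS1 (1.20) to LYS5, whose product activates Lys2 (-1.48). The 8 measured arginine genes of 9 had a median of -0.40, with 3 above, from the argininosuccinate synthetase gene ARG1 (0.81) to the acetylornithine aminotransferase gene ARG8 (-1.41). Adjusted for coding length the medians were 0.47 for histidine, 0.46 for aromatic, 0.41 for lysine and -0.10 for arginine genes, so the gap to the aromatic and lysine genes was small on that scale. Footprints spanned 8.70-fold over the histidine genes, 24.4-fold over the aromatic, 43.0-fold over the measured lysine and 12.3-fold over the measured arginine genes.

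**Figure D4:**
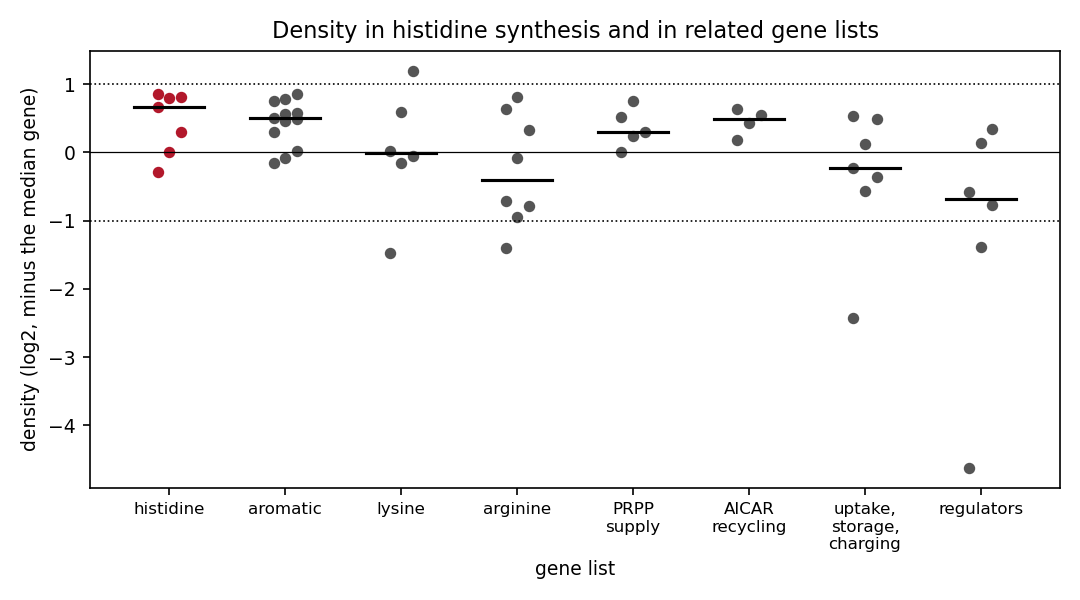
Density (log2, minus the median gene) of each measured gene in histidine synthesis and in 7 other lists, with bars at the list medians, a solid line at the median gene and dotted lines at 2-fold. Histidine genes run from -0.29 to 0.85 with a median of 0.66, and GCN4, the lowest point among the regulators, lies at -4.62. On centring by total footprints over total RNA all points drop by 0.38, which puts HIS1 and HIS4 below 0.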

How the data were processed

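The authors deposited 1 table with 1 RPKM column per assay and a log2 column, the ratio of the footprint to the RNA value. Per the file headers, it holds genes with at least 10 RPM of RNA and more than 0 RPM of footprints. Genes outside it are not analysed here. The submitters' processing notes name the build sacCer3. How reads were aligned, counted, assigned to strands and shared is not given in the sources used here. Depth is unknown. The authors' log2 column was recovered from the other columns.

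Symbols, coding regions and sequence came from RefSeq R64, where all 4685 identifiers matched. Density was the log2 ratio of footprint over RNA RPKM, without a pseudocount, minus its median over genes that averaged at least 5 RPKM. Adjustment for coding length or RNA level subtracted the median of the 300 genes nearest in rank. At the ends of a ranking the window was shifted and not centred on the gene. GCN1, GCN2, LYS2 and ARO1 were therefore set against the 300 longest analysed genes. Codon adaptation used relative codon weights with 0.5 added to each count. Percentages of genes below a value are over the 4642 analysed genes. With 1 library per assay there is no test. The calculation was tested on simulated data. The genes and lists were chosen with earlier results of these data known. Named genes are the 7 HIS genes, their nearest genes by level, their neighbours, all members of the short lists, and the highest and lowest genes of the 3 other amino acid pathways. Python 3.11.15, numpy 2.4.6 and pandas 2.3.3 were used.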

Additional observations from a re-analysis of the deposited data

How the results depend on the processing

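The median density of the HIS genes stayed above 0 under each of the 7 alternatives. It was 0.67 with no filter on mean RPKM and 0.65 with a pseudocount of 1 RPKM. It moved by over 0.1 from its reported 0.66 under the other 5, to 0.28 with centring on total footprints over total RNA, 0.48 with a minimum mean of 20 RPKM, 0.47 with adjustment for coding length, 0.46 with adjustment for RNA level and 0.48 without HIS3. The centring on totals shifts all densities by the same 0.38, and the minimum of 20 RPKM by 0.18, by construction. HIS1 changed sign under these 2 and under both adjustments (-0.37, -0.17, -0.25 and -0.63). HIS4 changed sign with centring on totals (-0.08) and with adjustment for RNA level (-0.26). The number of HIS genes more than 2-fold above was 0 throughout, except for 1, HIS7, with adjustment for coding length, and the number more than 2-fold below was 0 throughout. The fold ranges over the HIS genes were 8.53 in footprints and 11.1 in RNA with the pseudocount and did not depend on HIS3. No paired analysis was possible because each assay has 1 library. Unknown depth means that no counting interval can be given for any value.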

Other observations

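The proteins of the pathway, as encoded in the reference sequence, differ in how much histidine they hold. HIS3 encodes 12 histidines in 220 residues (5.45%) and HIS2 encodes 16 in 335 (4.78%), more by share than 99.2% and 98.3% of analysed genes. HIS1 encodes 2 in 297 residues (0.673%), and only 5.17% of analysed genes had a lower share. Between them, HIS5 (1.30%), HIS4 (1.63%) and HIS7 (1.63%) lay below the median of 2.04% over analysed genes, and HIS6 (2.30%) lay above it. Of the 63 histidine codons of the 7 genes 30, or 47.6%, were CAC, against 35.2% of all histidine codons in analysed genes, and 10 of the 30 were in HIS2.

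Among all listed genes, the one nearest in both levels, by distance on the log2 scales of footprints and RNA over the 2 libraries, was ACO1 for HIS1 (416.82 RPKM of footprints and 466.75 RPKM of RNA, distance 0.088) and NIP1 for HIS4 (281.02 and 293.32 RPKM, 0.051). It was ROX1 for HIS6 (60.96 and 40.06 RPKM, 0.067), IES6 for HIS7 (104.53 and 72.83 RPKM, 0.0087) and GON7 for HIS3 (135.58 and 96.95 RPKM, 0.031). HEM13 was nearest to HIS5 (107.46 and 83.43 RPKM, 0.0087) and ALG8 to HIS2 (45.41 and 67.70 RPKM, 0.0071).

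Neighbouring coding regions had levels of their own. HIS7 had 105.09 RPKM of footprints and 72.63 RPKM of RNA, while ARO4 of aromatic amino acid synthesis, 416 bases upstream on the same strand, had 578.52 RPKM of footprints and 409.09 RPKM of RNA. HIS6, with a density of 0.85, lies between RPB3 (166.56 RPKM of footprints and 114.47 RPKM of RNA, density 0.83) and FAF1 (43.66 and 28.76 RPKM, 0.89), both on the opposite strand. FCY2 upstream of HIS1 had 204.45 RPKM of footprints (density 0.44). BIK1 upstream of HIS4 had 26.80 RPKM (0.12) and RRP7 downstream of HIS4 93.27 RPKM (0.05). ENP1 downstream of HIS7 had 92.35 RPKM (0.61) and PRM5 upstream of HIS5 47.68 RPKM (0.68). NUP159 downstream of HIS5 had 63.59 RPKM (-0.24) and LSB3 downstream of HIS2 199.46 RPKM (0.43). The densities were 0.78 for ARO4 beside HIS7, and -0.78 for MRM1 and 0.61 for DED1 beside HIS3. GIP2 and ULI1, the remaining neighbours of HIS1 and HIS2, were not among the listed genes.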
